A study of Mus musculus with 6 samples.

Results

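The 10 genes described here encode acyl-CoA thioesterases (Acot1, Acot2, Acot3, Acot4, Acot8, Acot12 and Acot13) and acyl-CoA N-acyltransferases (Acnat1, Acnat2 and Baat). They were picked by gene symbol, and all 10 were found among the 17460 rows of the liver expression table. Livers came from C57BL/6 mice aged 9 months that had been fed a NASH diet, rich in fructose, trans fats and cholesterol, for 24 weeks. The groups were 3 control livers and 3 livers with liver-specific knockout of the long noncoding RNA Blnc1 (Blnc1 LKO). In the study's methods, Blnc1 LKO mice are transgenic for Cas9 throughout the body and received an adenovirus with 2 single-guide RNAs against Blnc1 by tail vein. For mice on a high-fat diet the study names Cas9 transgenic mice given a GFP adenovirus as control, and the sources used here do not say which virus the controls of the NASH diet received. The adenovirus reaches hepatocytes and few other liver cells, while whole-liver RNA holds both. The table has 0 rows named Blnc1, so the deletion itself was not checked. The study itself reports that Blnc1 expression fell only partly in whole liver, more in isolated hepatocytes, and hardly in the other liver cells.

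Fatty acids and bile acids enter metabolism as esters of coenzyme A (CoA). Acyl-CoA thioesterases cut this ester and release the free acid and CoA, whereas the N-acyltransferases pass the acyl group to taurine or glycine. Type I thioesterases (Acot1 to Acot4 here) and the N-acyltransferases share one protein fold and lie in gene clusters, while type II thioesterases (Acot8, Acot12 and Acot13) have an unrelated fold. Several type I genes are known targets of the fatty acid receptor PPAR-alpha in mouse liver. The members also sit in different compartments: Acot1 and Acot12 in the cytosol, Acot2 in mitochondria, and Acot3, Acot4, Acot8 and the Acnat enzymes in peroxisomes.

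The coding ends of the 10 genes are shown because entry into peroxisomes depends, for many enzymes, on a signal in the last residues of the protein, and because they show how alike the paralogs are. Each is the last 30 coding bases of the mRNA with the stop codon, 5′ to 3′, read from GENCODE M21 transcripts on build GRCm38, equal to mm10, and capitals mark the last 3 codons before the stop.
Acot1: gagtgtttgcatgtgtctCCTAAAATAtaa
Acot2: ttccacaaacagttgggtAGCAAGAGTtag
Acot3: aaaaagaagacaatcccaGCAAAACTGtga
Acot4: acccacagcagagcctccTGTAGACTGtag
Acot8: aagcctcaggtgtcagagAGTAAGCTAtag
Acot12: actcctgatggacttaaaAGTGTGTTAtaa
Acot13: ggcagacacacaaaacacCTGGGGAACtga
Acnat1: cacctccttcaatccggaAGCAAACTCtaa
Acnat2: cacctccttcaatccggaAGCAAACTCtaa
Baat: ctccttccagatttgagcAGTCAGCTCtga
Acnat1 and Acnat2 had the same 30 bases, and no other 2 genes shared their last 3 codons. The stretches lie at chr4:49447329-49447358 for Acnat1 and chr4:49380114-49380143 for Acnat2, both on the − strand.

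The members lie in 2 clusters and at 3 other places. Acot2, Acot1, Acot4 and Acot3 follow each other on the + strand of chromosome 12 between 83987861 and 84060402, with no other protein-coding gene between them. Acnat2, Acnat1 and Baat follow each other in the same way on the − strand of chromosome 4 between 49379840 and 49506557. Acot8 lies on chromosome 2 (164792765 to 164804882), Acot13 on chromosome 13 (24817948 to 24831540) and Acot12 far from it on the same chromosome (91741512 to 91786148). Over 1251 aligned coding bases, Acnat1 and Acnat2 were 96.2% identical, and Acot1 and Acot2 were 95.5% identical over 1239. Windows of 50 bases were used to ask how much of a transcript could give reads that fit another gene. Of the windows of Acnat2, 31.5% occur in a transcript of another gene, against 35.1% for Acnat1, 33.2% for Acot1, 27.7% for Acot2, 21.7% for Acot3, 17.7% for Acot8, 14.4% for Acot4, 3.32% for Acot12, and 0 for Acot13 and Baat. The values of all members but Acot13 and Baat are therefore uncertain where reads fall on shared stretches. Exons of Acot3 and Acot4 overlap those of the gene models Gm49366 and 4732463B04Rik, which are not among the rows used here. Exons of Acnat2 overlap those of Gm12451, also not among them, those of Acot8 overlap Snx21, and those of Acot12 overlap 4833422C13Rik. The library kit does not mark the strand of a read.

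Values below are normalized read counts, that is, the number of reads on a gene divided by a size factor for the liver set by the authors. The livers had 65384969 to 89350181 reads on the listed genes, and the 10 genes took between 0.0676% and 0.0803% of them, with at least 973 reads for each gene in each liver. Alb, the hepatocyte albumin gene, was the most abundant gene in all 6 livers. All 10 hepatocyte markers of a fixed list were present. The labels number the livers and do not state that each number is a separate mouse, so p-values measure only the spread between these samples, which may be technical. The 2 libraries of each pair within a group held different counts, with a chi-square of 20.8 to 70.0 for each degree of freedom, which is set against counting error only. The 10 genes were proposed for study with the difference between the groups already known. Their differences are therefore given as a description, and calls on them only as counts beside the share of all genes.

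Acnat2, Acot2 and Acot13 were lower in each of the 3 Blnc1 LKO livers than in each control liver. The difference was widest for Acnat2, whose control mean was 1.78-fold the Blnc1 LKO mean. It was 1.41-fold for Acot2 and 1.13-fold for Acot13. The values of the other 7 genes overlapped between the groups, and no member was higher in all Blnc1 LKO livers. Of all genes tested, 10.6% did not overlap in either direction and 5.28% did so with the Blnc1 LKO group below. Limma called 0 of the 10 members at an adjusted p under 0.05, beside 0.00578% of all genes, and 3 of the 10 at an unadjusted p under 0.05, beside 5.68%. DESeq2, the test that the study used, called Acnat2 and Acot2 on the recovered reads. It called 0.538% of the 15617 genes that it gave an adjusted p, in either direction, and 0.25% in the lower one. EdgeR called 0 members, beside 0.0116% of all genes. As the members were chosen on this contrast, nothing is read from these counts. In whole-liver RNA, fewer cells of a type and less RNA per cell cannot be told apart.

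**Figure D1:**
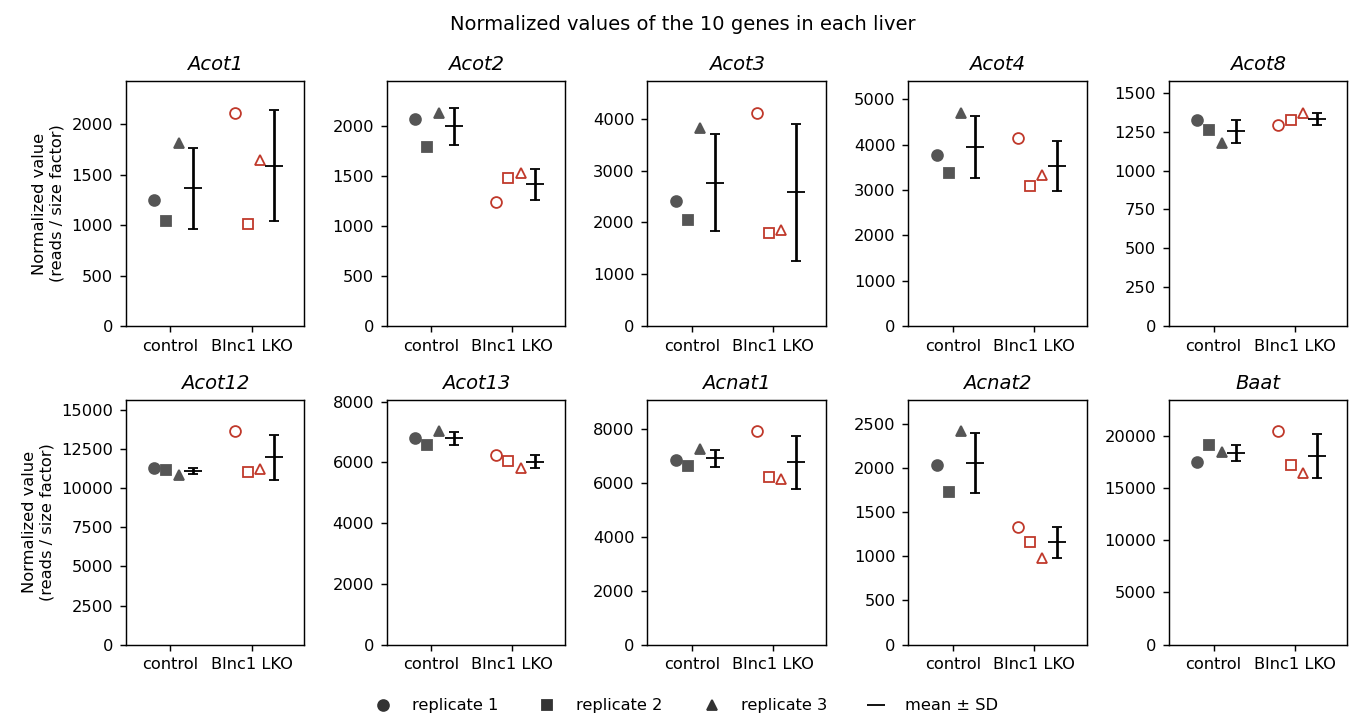
Normalized value (reads divided by the size factor, linear axis from 0) of each of the 10 genes in 3 control (filled) and 3 Blnc1 LKO (open) livers, with replicates as different symbols and the mean ± SD beside them. The groups part for Acot2, Acot13 and Acnat2 and overlap for the other 7 genes.

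Among the N-acyltransferases, Acnat2 encodes a close relative of the taurine-conjugating enzyme Acnat1. Control livers had normalized values of 2037, 1729 and 2419, and Blnc1 LKO livers 1330, 1164 and 981. The highest Blnc1 LKO liver thus lay below the lowest control liver, with means of 2062 ± 346 and 1159 ± 175 (SD, n = 3 each). The log2 fold change, on the log2(value + 1) scale and with Blnc1 LKO minus control, was −0.83 (standard error 0.14). With each liver left out in turn it ranged from −0.95 to −0.71.

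Acnat1, which joins long-chain acyl groups to taurine in peroxisomes, had values of 6850, 6633 and 7256 under control and 7913, 6217 and 6155 under Blnc1 LKO. Replicate 1 of the Blnc1 LKO livers was the highest of all 6, and the other two Blnc1 LKO livers were the lowest. The log2 fold change was −0.04 (standard error 0.096). Baat, the enzyme that conjugates bile acids with taurine or glycine, showed the same order within the Blnc1 LKO group. The control values were 17546, 19154 and 18461 and the Blnc1 LKO values 20449, 17234 and 16507. Its log2 fold change was −0.03 (standard error 0.085). For both genes the sign turned when 1 liver was left out, Blnc1 LKO replicate 2 or 3 for Acnat1 (up to 0.02) and replicate 3 for Baat (0.03).

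Because Acnat1 and Acnat2 are nearly identical, their values were also summed, a choice made after their sequences were compared. The sums overlapped, at 8887, 8362 and 9675 for control and 9243, 7381 and 7136 for Blnc1 LKO. Their log2 fold change was −0.19. Acnat1 made up the larger part of each sum, so the sum is not a check on the difference in Acnat2 or on shared reads. Of the sum, Acnat2 made up 22.9%, 20.7% and 25.0% for control and 14.4%, 15.8% and 13.7% for Blnc1 LKO. This share did not overlap between the groups, with means of 22.9% ± 2.16 and 14.6% ± 1.03 (SD, n = 3 each).

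**Figure D2:**
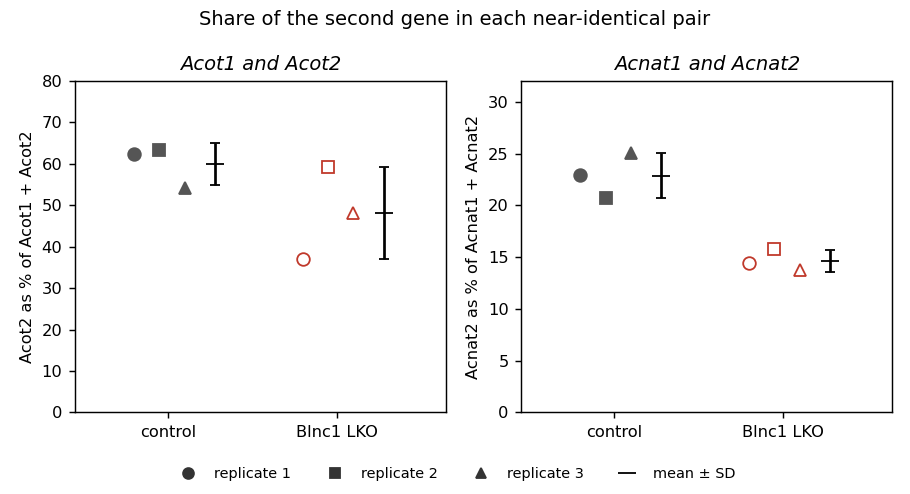
Acot2 as a percent of the summed value of Acot1 and Acot2 (left) and Acnat2 as a percent of the summed value of Acnat1 and Acnat2 (right) in each liver, with the mean ± SD (n = 3). The Acnat2 share is at least 20.7% in control and at most 15.8% in Blnc1 LKO livers, while the Acot2 shares overlap.

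Among the type I thioesterases, Acot2 acts on long-chain acyl-CoA in the mitochondrial matrix. It had 2068, 1788 and 2130 in the control group and 1242, 1479 and 1529 in the Blnc1 LKO group. All Blnc1 LKO livers were below all control livers, with means of 1417 ± 153 and 1995 ± 182 (SD, n = 3 each) and a log2 fold change of −0.50 (standard error 0.098). This value ranged from −0.57 to −0.40 with each liver left out in turn.

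Acot1, the cytosolic relative of Acot2, had 1247, 1037 and 1811 in the control group and 2112, 1016 and 1643 in the Blnc1 LKO group. Control replicate 3 and Blnc1 LKO replicates 1 and 3 were high, and the control values all lay within the range of the Blnc1 LKO values. The log2 fold change was 0.20 (standard error 0.27), and it was −0.04 without Blnc1 LKO replicate 1. The sum of Acot1 and Acot2 was 3315, 2824 and 3941 for control and 3355, 2495 and 3172 for Blnc1 LKO. These sums overlapped, with a log2 fold change of −0.16. The share of Acot2 in this sum was 62.4%, 63.3% and 54.1% in control livers. In Blnc1 LKO livers it was 37.0%, 59.3% and 48.2%, so that replicate 2 lay within the control range.

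Acot3, a peroxisomal thioesterase of long-chain acyl-CoA, varied most of the members between livers of one group. Values were 2411, 2054 and 3830 for control and 4114, 1795 and 1851 for Blnc1 LKO, a 2.29-fold range. The 1 high liver in each group, control replicate 3 and Blnc1 LKO replicate 1, set the means. The log2 fold change of −0.16 (standard error 0.33) ranged from −0.55 without Blnc1 LKO replicate 1 to 0.10 without control replicate 3. Acot4, which acts on succinyl-CoA and related CoA esters in mouse peroxisomes, had 3764, 3366 and 4696 for control and 4138, 3086 and 3330 for Blnc1 LKO. Control replicate 3 and Blnc1 LKO replicate 1 were again the highest of their groups, and the log2 fold change was −0.16 (standard error 0.14). Without control replicate 3 this value was −0.03.

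**Figure D3:**
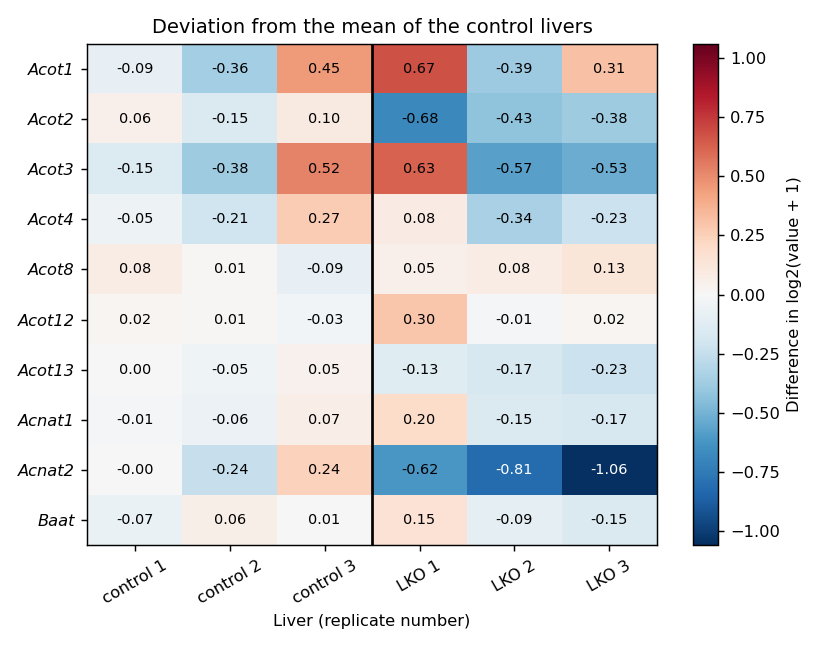
Difference in log2(value + 1) of each liver (columns) from the mean of the control livers, for each of the 10 genes (rows), with the value printed in each cell. Acnat2 and Acot2 are blue in all 3 Blnc1 LKO livers, while Acot1 and Acot3 are red in control replicate 3 and Blnc1 LKO replicate 1 alike.

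Among the type II thioesterases, Acot13 (also called Them2) hydrolyses long-chain acyl-CoA and is bound by phosphatidylcholine transfer protein. The control livers were at 6796, 6582 and 7013 and the Blnc1 LKO livers at 6226, 6028 and 5803. Both groups were tight, at 6797 ± 215 and 6019 ± 212 (SD, n = 3 each), and did not overlap. The log2 fold change of −0.18 (standard error 0.053) ranged from −0.20 to −0.15 with each liver left out in turn.

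Acot8, a peroxisomal thioesterase with a broad range of substrates that includes bile acid CoA esters, had 1322, 1258 and 1176 for control and 1296, 1323 and 1370 for Blnc1 LKO. The groups overlapped through control replicate 1, and the log2 fold change was 0.09 (standard error 0.067). Acot12, a cytosolic acetyl-CoA thioesterase of hepatocytes, had 11291, 11193 and 10894 for control and 13652, 11048 and 11275 for Blnc1 LKO. Blnc1 LKO replicate 1 alone lay above the control range, and without it the log2 fold change went from 0.10 (standard error 0.082) to 0.00.

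**Figure D4:**
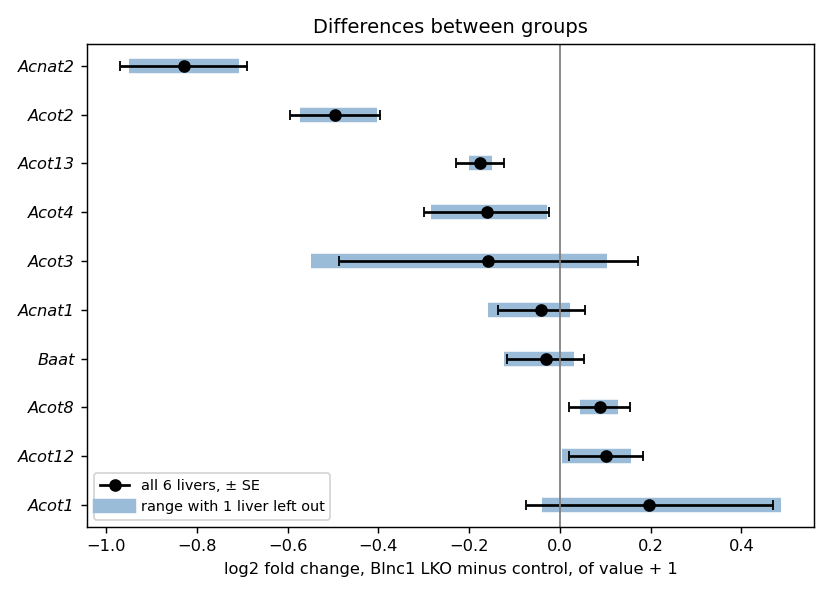
log2 fold change of value + 1 (Blnc1 LKO minus control) of each gene with its standard error (black) and the range of this value with 1 liver left out (blue). The ranges of Acnat2, Acot2, Acot13 and Acot4 lie below 0, those of Acot8 and Acot12 above it, and those of Acot1, Acot3, Acnat1 and Baat cross it.

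Over the 10 genes, 7 had a lower and 3 a higher mean log2 value in Blnc1 LKO livers. Of the 17297 genes tested, 8715 were lower and 8582 higher. The median log2 fold change of the 10 genes was −0.10, beside −0.00099 over all genes tested. The livers of the Blnc1 LKO group were not alike. The median deviation of the 10 genes from the control mean was 0.12 in Blnc1 LKO replicate 1, −0.26 in replicate 2 and −0.20 in replicate 3. Control livers lay at −0.008, −0.11 and 0.085. Replicate 1 of the Blnc1 LKO livers held the highest value of all 6 livers for 5 of the 10 genes, and control replicate 3 for 4. Without Blnc1 LKO replicate 1 the median log2 fold change was −0.18, and it was 0.007 without replicate 2 and 0.02 without replicate 3.

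The spread between livers of one group is given as a description. The standard deviation of log2(value + 1) within groups was 0.58 for Acot3, 0.48 for Acot1, 0.23 for Acot4 and Acnat2, and 0.15 for Acot2 and Acnat1. It was lowest for Acot13 at 0.048, followed by Acot8 at 0.066. Among the 6377 genes whose mean lay within the range of the 10 genes, the median was 0.079, and 8 of the 10 genes lay above it, all but Acot13 and Acot8. Over all 17297 genes the median was 0.134, and 6 of the 10 lay above it.

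Levels of different genes were compared per length, as RPKM, the reads scaled to exon length and to the total of the liver. The mean over 6 livers was 126 ± 7.86 for Baat and 116 ± 8.69 for Acot13 (SD, n = 6 each), and the ranges of these genes overlapped. Acot12, at 47.1 ± 3.16, and Acnat1, at 43.1 ± 3.26 (SD, n = 6 each), came next and also overlapped. The other 6 genes were well below, from 12.4 ± 4.24 for Acnat2 to 5.04 ± 1.41 for Acot1 (SD, n = 6 each), and each overlapped its neighbour in this order. The order pools both groups: Acnat2 averaged 15.9 in control and 8.90 in Blnc1 LKO livers, where Acot3 (9.97) and Acot8 (8.94) lay above it. All ranges of the first 2 genes lay above those of the next 2, and these above those of the remaining 6. With the longest transcript in place of all exons as the length, Acnat1 passed Acot12, and Acot8 moved from rank 8 to rank 5. Levels of the near-identical pairs carry the uncertainty of their shared reads.

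**Figure D5:**
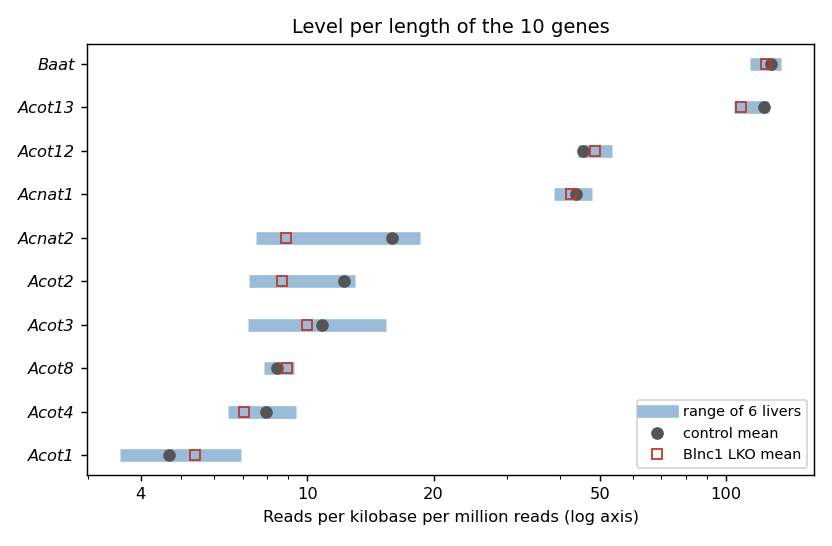
RPKM (reads scaled to exon length and library total, log axis) of each gene, as the range of 6 livers (blue) with the means of control and Blnc1 LKO livers. Baat and Acot13 lie above 100, Acot12 and Acnat1 between 38.7 and 53.3, and the other 6 genes below 18.6.

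The genes around these enzymes were taken from 7 fixed lists, with 94 of 96 genes tested. Limma called 0 of the 94 at an adjusted p under 0.05, with 8 (8.51%) at an unadjusted p under 0.05, beside 5.68% of all genes. EdgeR also called 0, and DESeq2 called Keg1 and Nudt7, beside 0.538% of the 15617 genes that it gave an adjusted p. By mean log2 value, 58 of the 94 were higher and 36 lower, beside 8582 higher and 8715 lower of all genes tested. The groups did not overlap for 8 of the 94 (8.51%), beside 10.6% of all genes. The genes named below are mostly those of smallest p in each list. Of the 8 other acyl-CoA thioesterases, 4 had a higher and 4 a lower mean log2 value (median log2 fold change −0.004). Acot9, a mitochondrial thioesterase, had 1540, 1610 and 1483 for control and 1162, 1473 and 1327 for Blnc1 LKO, which did not overlap (log2 fold change −0.23, standard error 0.090, adjusted p = 0.848, limma). Them5, another mitochondrial thioesterase, was low, with 3.20 to 8.52 in control and 8.33 to 16.9 in Blnc1 LKO livers, and the groups overlapped (adjusted p = 0.930, limma).

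Acyl-CoA synthetases make the substrates of these enzymes, and 10 of 19 had a higher and 9 a lower mean log2 value (median log2 fold change 0.02). Acsl3, a synthetase of long-chain fatty acids, had 2739, 3362 and 3874 for control and 2621, 2630 and 2201 for Blnc1 LKO, below every control liver (adjusted p = 0.745, limma). Acsm2, a medium-chain synthetase, was low throughout, at 10.7 to 12.1 in control and 15.9 to 42.8 in Blnc1 LKO livers, without overlap (adjusted p = 0.873, limma). Slc27a5, which activates bile acids for Baat, had 45062, 45944 and 48419 in control and 62263, 45159 and 54449 in Blnc1 LKO livers (adjusted p = 0.927, limma). In the list of taurine synthesis and bile acid activation, 3 of 5 genes had a higher mean log2 value. Its smallest p after Slc27a5 was that of Slc6a6, the taurine transporter, whose values overlapped between groups (adjusted p = 0.968, limma).

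Other enzymes that form or cut N-acyl amino acids had a higher mean log2 value in 4 of 6 cases, with a median log2 fold change of 0.16. Keg1, a gene of the glycine N-acyltransferase family, had 4865, 6376 and 5364 for control and 9618, 6758 and 7564 for Blnc1 LKO. It was higher in every Blnc1 LKO liver, with an adjusted p of 0.619 in limma and 0.0302 in DESeq2. Glyat, which joins benzoyl-CoA and other acyl-CoA to glycine, had 23233, 24828 and 23592 in control and 30703, 24571 and 28412 in Blnc1 LKO livers, which overlapped (adjusted p = 0.846, limma).

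For synthesis and breakdown of CoA itself, 10 of 14 genes had a higher mean log2 value (median log2 fold change 0.05). Nudt7, a peroxisomal enzyme that degrades CoA, had 30016, 33927 and 25673 for control and 48930, 37380 and 44483 for Blnc1 LKO. It was 1.46-fold in Blnc1 LKO livers relative to control and higher in all 3 (adjusted p = 0.548, limma, and 0.00499, DESeq2). Slc25a42, which carries CoA into mitochondria, was 6359, 6432 and 6300 in control and 7159, 6779 and 7267 in Blnc1 LKO livers, without overlap (adjusted p = 0.819, limma).

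Of 23 genes of peroxisomal β-oxidation and transport, 15 had a higher mean log2 value (median log2 fold change 0.03). Eci2, a peroxisomal enoyl-CoA isomerase, was 17760, 17860 and 18088 for control and 21616, 18930 and 21784 for Blnc1 LKO, without overlap (adjusted p = 0.784, limma). Acox2, the oxidase of bile acid precursors, overlapped between groups (adjusted p = 0.891, limma). For the 25 genes of PPAR-alpha and its established targets, 16 had a higher mean log2 value, with a median log2 fold change of 0.03. The groups overlapped for all 25, where 10.6% of all genes did not overlap. Ppara had 32795, 34226 and 31612 for control and 37344, 33093 and 34174 for Blnc1 LKO (adjusted p = 0.971, limma). The target genes of smallest p, Pdk4 and Fgf21, had Blnc1 LKO means of 0.830 and 0.827 of the control means, with overlapping values (adjusted p = 0.891 for both, limma).

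The summed level of 10 hepatocyte markers was 79617 to 87882 CPM (reads scaled to the total of the liver) in control and 79592 to 92086 in Blnc1 LKO livers, with 7 of 10 genes higher by mean log2 value. Alb alone took 5.06% to 5.98% of the reads of a liver and made up most of this sum. For 8 stellate cell and myofibroblast markers the summed level was 1468 to 1620 CPM and 1171 to 1520 CPM, with 6 lower. Sums for macrophages, endothelial cells, cholangiocytes and lymphocytes also overlapped. The overlap was narrow for endothelial cells, at 318 to 336 CPM in control and 301 to 318 CPM in Blnc1 LKO livers. Lower mean log2 values were found for 5 of 7 endothelial, 4 of 5 cholangiocyte and 5 of 6 lymphocyte markers. For macrophages, 5 of 8 were higher. The whole table holds 0 genes at 0 in every liver, so no listed marker could be. For adipocytes and pancreatic acinar cells 3 of 6 markers were listed, at 13.6 to 18.6 CPM in sum. The summed level of 14 male-biased liver genes, all with a higher mean log2 value, was 8719 to 12369 CPM in control and 13145 to 17461 CPM in Blnc1 LKO livers and did not overlap. Among single genes, 10.6% of all those tested did not overlap in either direction, a share that gives no background for a sum. The lists were chosen with earlier results of these data known, so the count and the sum are a description only. Mup20, 1 of the 14, made up most of this sum on average. Its normalized values averaged 654307 in control and 917340 in Blnc1 LKO livers, without overlap. The sum without Mup20 was not tested. The part of the difference in male-biased genes in the values of Acnat2, Acot2 and Acot13 was not tested either.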

How the data were processed

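Liver mRNA of 3 control and 3 Blnc1 LKO livers was sequenced by the authors on a HiSeq2500 from TruSeq RNA v2 libraries. Per the labels and methods, reads were aligned to mm10 with STAR, counted per gene with HTSeq and tested with DESeq2; FastQC is also named, and versions, gene annotation and filters are not given in the sources used here. The deposited table holds a signal, the read count of each gene divided by a size factor per liver. Columns named for wild type and knockout were matched by number to the control and Blnc1 LKO livers. It holds 17460 rows and 2 date-like symbols on 2 rows each, kept as separate rows.

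The smallest value above 0 in a liver was taken as 1 read; divided by it, 100% of values were whole within 0.01. Limma (version 3.58.1, R 4.3.3) used log2(value + 1) with an intensity trend, on 17297 genes that reached 1 in 3 or more livers. Calls were made at a Benjamini-Hochberg adjusted p under 0.05. An exact permutation test of 3 against 3 livers cannot give a p below 0.1. Alternatives were edgeR (4.0.16), DESeq2 (1.42.0), voom, other scalings, filters and a pseudocount of 0.1, the replicate number as a block, and each liver left out. On simulated data with 200 of 17297 genes changed by 1.5 (log2), limma recovered 93% and called 16 unchanged genes. The widest difference among the members, −0.83 for Acnat2, is smaller than this. Recovery of changes of the members' size was not simulated, so the 93% does not apply to them. Annotation, lengths and sequences came from GENCODE M21; coding sequences were aligned with Biopython (1.88). Named genes are all members and, in each pathway list, the 2 of smallest unadjusted p, with Ppara and Slc27a5; 1 further gene that the rule names is not reported here. For Acot1, the 3 genes most alike over the livers are named too. Members and lists were chosen with earlier results of these data known.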

Additional observations from a re-analysis of the deposited data

How the results depend on the processing

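Over all genes, limma called 1 gene. The count was 2 with edgeR, with edgeR and TMM factors, with limma on log2(CPM + 1) and with no filter on low values. It was 84 with DESeq2 (45 higher, 39 lower), and with each liver left out in turn it ranged from 0 to 13, at 0 without control replicate 1, 3 without control replicate 2, 2 without Blnc1 LKO replicate 1 and 13 without Blnc1 LKO replicate 2. With a replicate block in the fit, limma called 0 genes and DESeq2 64. The cause of these changes in count was not tested. The numbers were treated as shared labels only. Deviations of same-numbered livers from their group means correlated at −0.057, 0.0047 and −0.18 over 15127 genes. By these correlations no liver was closest to its own number. Of the pathway genes DESeq2 called 2 and, with the replicate block, 1, and the other alternatives none. Under the block Nudt7 was called (adjusted p = 0.00528, DESeq2) and Keg1 was not. Acnat2 and Acot2 were the members called by DESeq2 with and without the block, and none was called in the other fits. The sign of the log2 fold change was the same in every alternative for Acot2, Acot4, Acot8, Acot12, Acot13 and Acnat2. It turned in some fit without 1 liver for Acot1, Acot3, Acnat1 and Baat, and for Acot1 also in its sum with Acot2.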

Other observations

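Among 12853 other genes with a mean of at least 1 CPM, those whose log2(value + 1) followed Acot1 most closely over the 6 livers were Dhx36, Hsd3b2 and Ppp1r2, with a Pearson r of 0.996, 0.993 and 0.993. With 6 livers, 281 genes reached an r above 0.9, so this likeness is a description of these livers.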
